A study of Pan troglodytes with 217 samples.

Results

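The S and G2/M genes described here are a list of 58 cell cycle genes, 27 for S phase (MCM5 to DSCC1) and 31 for G2 and mitosis (HMGB2 to CENPE), matched by symbol with no threshold on their values in these cells. Of the 58, 57 had an identifier among the 33729 Ensembl chimpanzee identifiers of the count table, and UBE2C had none. Their reads were described in single cells of day 4 chimpanzee blastoids, blastocyst-like structures formed in vitro from naive pluripotent stem cells. Naive cells had been moved through medium with the inhibitors PD and A83, LPA and Y-27632, then the same without PD, then N2B27 alone. The labels separate no conditions and do not say whether the naive cells started as floating colonies or as dissociated cells spun into clusters, which the methods give as alternatives. Most of the mural trophectoderm had been cut away by hand and dissociated separately from what remained, inner cell mass and polar trophectoderm. Each cell had its own SMART-seq2 library, a full-length cDNA method without molecular identifiers, so reads and not molecules were counted.

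Cells with at least 4000 reads and at least 8000 detected genes were kept and 24 cells were left out. The cells kept had 1679888 to 25630392 reads and a median of 3.96086e+06. They comprised 50 epiblast-like and 32 hypoblast-like cells, and trophectoderm-like cells in a larger cluster of 60 and a smaller cluster of 51. The hypoblast-like cluster had GATA4, SOX17 and PDGFRA among its leading genes, with APOA1 under 1 CPM (reads per 1000000 reads of the cells). The epiblast-like cluster was led by SPP1, TNFAIP6 and FGF4, and the smaller trophectoderm-like cluster by genes that included CCR7, CYP19A1 and CGA. The leading genes of the larger one contained no listed marker, although all 14 trophectoderm markers were at 1 CPM or more in it. That count was 14 in epiblast-like and 13 in hypoblast-like cells too. Summed levels of these markers were 3223 CPM in the larger cluster, against 498 in epiblast-like and 630 in hypoblast-like cells. Of 7 fibroblast markers, 2 reached 1 CPM in epiblast-like cells and 1 in each other class. Of 7 amnion markers, 4 reached 1 CPM in epiblast-like, 3 in hypoblast-like and 2 in trophectoderm-like cells, with summed levels of 309, 335 and 49.7 CPM. No label gave the blastoid, line or plate of a cell, so all cells formed 1 sample, no test was possible, and intervals cover counting error only. When all listed cell cycle genes were left out of the clustering, every cell kept stayed in the same class and the trophectoderm-like clusters again held 60 and 51 cells. Other settings moved the boundary between these clusters.

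Before DNA is copied, E2F transcription factors raise genes for licensing origins, opening the helicase, making deoxynucleotides and running the fork. After S phase the MuvB complex with B-MYB and FOXM1 raises genes for condensing chromosomes, building the spindle, attaching kinetochores and degrading cyclin B. Pluripotent cells are known for a short G1 phase with E2F targets on for much of the cycle, and trophoblast is known for later cell cycle exit and endoreduplication in some of its descendants.

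At least 50% of the members of each list were at 10 CPM or more in nearly every cell of all 3 classes. The same share over all genes was not computed, so this does not show that either programme was on. Every cell kept had at least 50% of the 27 S members at 10 CPM or more (95% exact Clopper-Pearson interval 98.1% to 100%), with 15 to 25 members per cell. At least 50% of the 30 G2/M members were at 10 CPM in all but 3 of the cells kept (98.4%, interval 95.5% to 99.7%), and the median cell of each class had all 30. This threshold was met so widely that it did not separate the classes. At 100 CPM, a threshold added after the data were seen, at least 50% of the G2/M members were reached in 70% of epiblast-like cells (interval 55.4% to 82.1%), 84.4% of hypoblast-like cells (67.2% to 94.7%) and 90.99% of trophectoderm-like cells (84.1% to 95.6%). At least 50% of the S members were reached at 100 CPM in 54% (39.3% to 68.2%), 40.6% (23.7% to 59.4%) and 58.6% (48.8% to 67.8%) of these classes.

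Each of the 3 cells under this share of the G2/M members came from a different class. They had 12 to 14 of the 30 members at 10 CPM and 16 to 18 of the 27 S members. The medians over the cells kept were 30 and 23. MKI67, the proliferation antigen that coats mitotic chromosomes, was at 0, 0 and 0.62 CPM in them. PCNA, the sliding clamp of the replication fork, was at 150, 197.96 and 367 CPM, under its pooled level in each class. They had 3227879 to 6834657 reads and 9828 to 10881 detected genes. The medians over the cells kept were 3.96086e+06 reads and 11270 detected genes. Whether cell quality had a part was not tested. The epiblast-like and hypoblast-like cells of this trio had 10 G2/M members without a read and the trophectoderm-like cell 7.

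The mean log2(CPM + 1) of the 25 S members and of the 30 G2/M members that passed a level filter (10 CPM pooled over all cells kept) gave each cell an S score and a G2/M score. The S score ran from 3.81 to 7.85 with a median of 6.49, and the G2/M score from 2.89 to 8.49 with a median of 7.42. The 3 cells with few G2/M members had S scores of 4.20, 4.43 and 5.01, under the lower quartile of 5.93. Epiblast-like cells varied most in the G2/M score, with an SD over cells of 1.27 against 1.05 in hypoblast-like and 0.77 in trophectoderm-like cells. Their median G2/M score of 7.10 lay below those of hypoblast-like (7.50) and trophectoderm-like cells (7.49), while the lowest cells of all classes lay between 2.89 and 3.11. Median S scores were 6.25, 6.402 and 6.59 in epiblast-, hypoblast- and trophectoderm-like cells, closer than the spread among the cells of each class (SD 0.74 to 0.94).

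**Figure D1:**
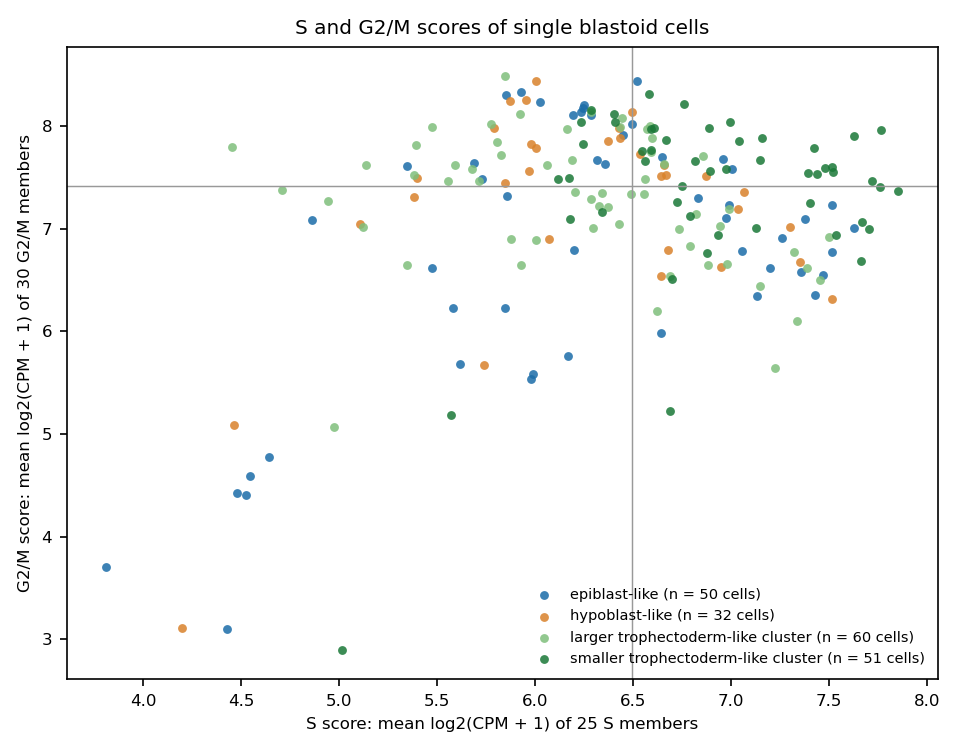
S score (x axis) and G2/M score (y axis), each the mean log2(CPM + 1) of the members that passed the level filter, with 1 point per cell and grey lines at the medians over all cells kept. The smaller trophectoderm-like cluster has 25 of its 51 cells above both lines, and 16 of 50 epiblast-like cells lie at or below both, with a tail to a G2/M score of 3.10.

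Against the medians over all cells, 25 of 51 cells of the smaller trophectoderm-like cluster (49.02%, interval 34.8% to 63.4%) were above on both scores, compared with 7 of 60 in the larger one (11.7%, 4.82% to 22.6%). Of the epiblast-like cells, 4 of 50 were above on both (8%, 2.22% to 19.2%) and 16 of 50 at or below on both (32%, 19.5% to 46.7%). The remaining epiblast-like cells divided evenly, with 15 high in S alone and 15 high in G2/M alone.

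Level differences between classes were modest for both lists. Ratios are of CPM pooled over the cells of each class, and a member is counted where this ratio reached 2-fold. From epiblast-like to trophectoderm-like cells, 3 of 25 S members were at least 2-fold higher (CCNE2, TIPIN and RRM2), beside 9.74% of all 7802 genes that passed the level filter, and 0 were 2-fold lower, beside 13.3% of all genes. CCNE2, under 10 CPM in epiblast- and hypoblast-like cells, passed the level filter only through trophectoderm-like cells, where it is high, so its place in the counts of either comparison is a description. Of 30 G2/M members, 1 was 2-fold higher (CDK1) and 1 lower (NDC80). In either direction this makes 12% of S and 6.67% of G2/M members, beside 23% of all genes. The median log2 ratio was 0.11 for S members and 0.37 for G2/M members, with -0.04 over all genes, and 22 of 30 G2/M members were above 0. From hypoblast-like to trophectoderm-like cells, 3 S members were higher (CCNE2, TIPIN and EXO1; 9.16% of all genes) and 2 G2/M members lower (NDC80 and NUSAP1; 9.31% of all genes). From epiblast-like to hypoblast-like cells, RRM2 alone was 2-fold higher (4.99% of all genes), 0 members of either list were 2-fold lower (8.28% of all genes), and the median G2/M log2 ratio was 0.26 against -0.10 for all genes.

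Scaling moved some of these counts. With TMM factors the median log2 ratio of all genes shifted by 0.20 for trophectoderm-like over epiblast-like cells and by 0.16 for hypoblast-like over epiblast-like cells. Under it, 5 of 30 G2/M members were 2-fold higher in trophectoderm-like than in epiblast-like cells, beside 12.8% of all genes under TMM, where CPM gave 1, and the NUSAP1 log2 ratio of trophectoderm-like over hypoblast-like cells was -0.98, no longer past 2-fold. The EXO1 log2 ratio of trophectoderm-like over hypoblast-like cells was 1.03 with CPM, and 0.91 in cells thinned to 1 depth.

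**Figure D2:**
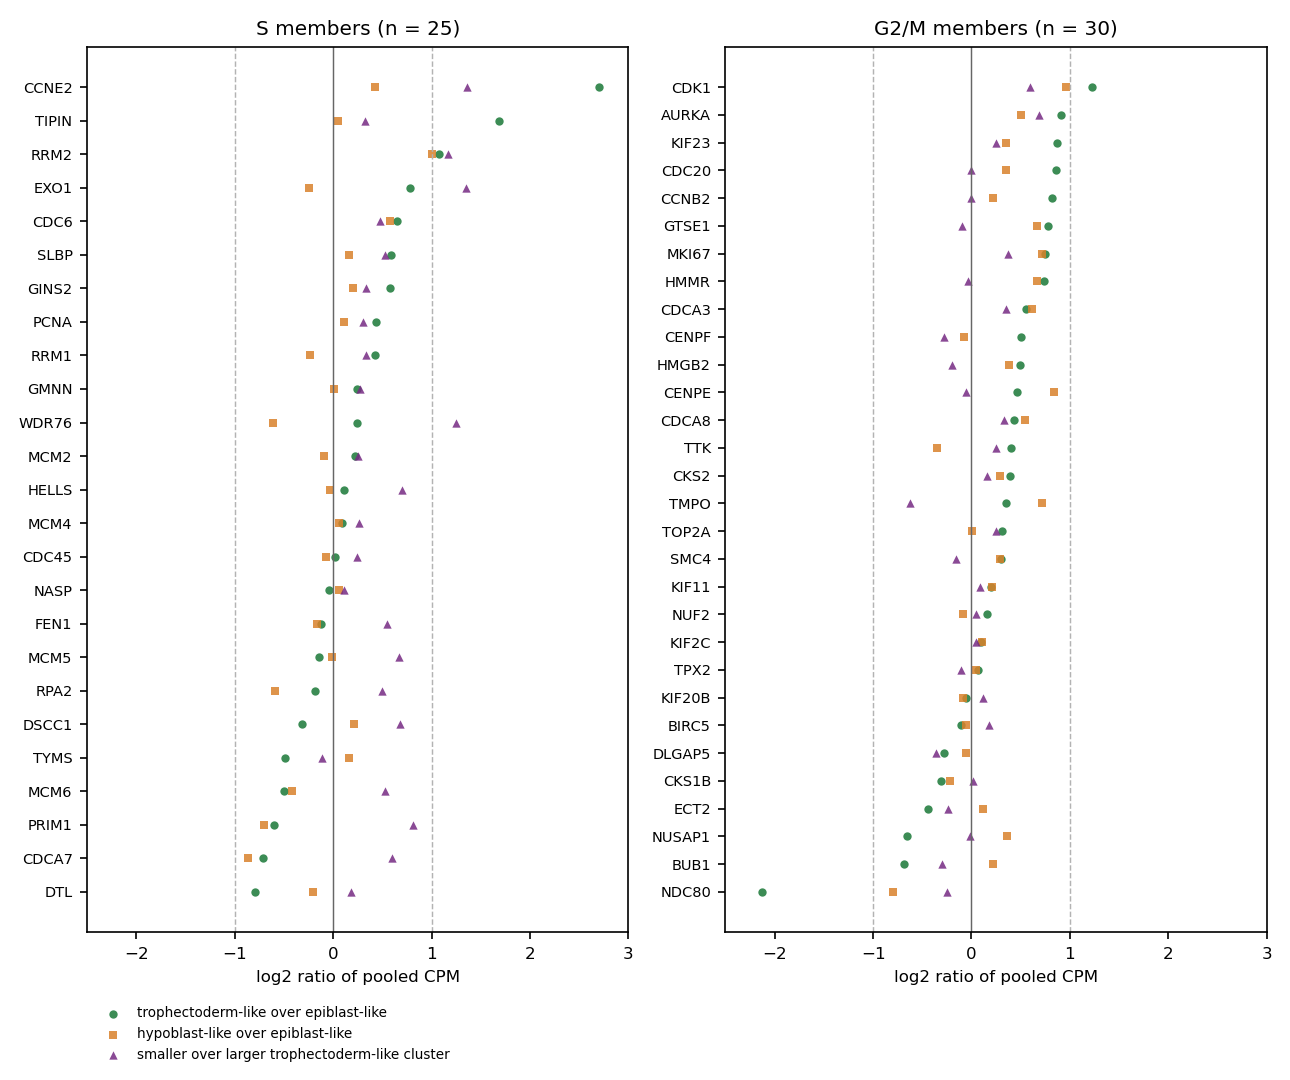
Log2 ratio of pooled CPM (x axis) for each S member (left, 25 genes) and G2/M member (right, 30 genes) in 3 comparisons, ordered by the ratio of trophectoderm-like over epiblast-like cells; dashed lines mark 2-fold. CCNE2 at 2.704 and NDC80 at -2.13 lie far from the other members, and 24 of 25 S members are above 0 for the smaller over the larger trophectoderm-like cluster.

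Licensing and helicase members differed little between classes. For trophectoderm-like over epiblast-like cells their 9 log2 ratios ran from -0.79 for DTL, which targets the licensing factor CDT1 for destruction, to 0.65 for CDC6, which loads the MCM helicase. MCM4, a helicase subunit, was at 245.03, 254.6 and 260 pooled CPM in epiblast-, hypoblast- and trophectoderm-like cells. GMNN, the geminin that blocks relicensing, was at 202.2, 203.9 and 239.3 CPM. These class values lay well inside the range over single cells, which for GMNN ran from 19.05 to 436 CPM.

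Among the 6 fork members that passed the filter, TIPIN stood out. It encodes a partner of TIMELESS that protects stalled forks. Pooled CPM was 38.2 in epiblast-like (95% exact Poisson interval 37.3 to 38.996), 39.6 in hypoblast-like (38.5 to 40.7) and 122.8 in trophectoderm-like cells (121.9 to 123.8), a 3.22-fold and a 3.10-fold difference. Single cells ran from 0 to 142.2 CPM with a median of 29.2 in epiblast-like cells, from 0 to 93.7 (median 34.4) in hypoblast-like cells and from 0 to 272 (median 116.7) in trophectoderm-like cells. The ranges overlapped, yet 94.6% of trophectoderm-like cells were above the epiblast-like median. Both trophectoderm-like clusters were high, with medians of 108.7 and 132.2 CPM.

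The other fork members did not share this pattern. PCNA was at 483, 521 and 654 pooled CPM in epiblast-, hypoblast- and trophectoderm-like cells. PRIM1, the primase subunit that starts each new strand, was higher in epiblast-like cells, at 127.3 pooled CPM against 78.5 and 83.9. RPA2, a subunit of the complex that coats single-stranded DNA, was lowest in hypoblast-like cells, at 116.4 pooled CPM against 175.4 in epiblast-like and 154.9 in trophectoderm-like cells. FEN1, which trims Okazaki fragments, was at 39.5, 35.1 and 36.3 CPM.

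Nucleotide supply was uneven. RRM2, the regulated subunit of ribonucleotide reductase, was at 409 pooled CPM in epiblast-like (406 to 412), 821 in hypoblast-like (816 to 826) and 864 in trophectoderm-like cells (861 to 866). Its cells ran from 0 to 1125 (median 309), 10.97 to 2106 (median 788) and 9.29 to 2238 CPM (median 759), and the upper part of the hypoblast- and trophectoderm-like ranges lay above every epiblast-like cell. RRM1, the other subunit, was at 166.2, 141.1 and 222.8 CPM. TYMS, the thymidylate synthase, was lowest in trophectoderm-like cells, at 469, 524 and 334 CPM.

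CCNE2, the E2-type partner of CDK2 at S entry, was the S member with the largest ratio and among the sparsest. Pooled CPM was 3.09 (2.86 to 3.33), 4.15 (3.80 to 4.51) and 20.1 (19.7 to 20.5) in epiblast-, hypoblast- and trophectoderm-like cells, a 6.52-fold and a 4.85-fold difference. As log2 ratios these were 2.704 and 2.28, and over the alternatives they ran from 1.10 (medians of single cells plus 1 CPM) to 2.90 (TMM) and from 1.10 (the same medians) to 3.27 (thinned cells). It had a read in 32% of epiblast-like (19.5% to 46.7%), 25% of hypoblast-like (11.5% to 43.4%) and 54.1% of trophectoderm-like cells (44.3% to 63.6%). The median cell was at 0 CPM in the first pair of classes and at 1.15 CPM in trophectoderm-like cells, whose highest cell reached 169.1 CPM. With every cell thinned to 2532312 reads, and 20 shallower cells left out, the shares were 33.3%, 24% and 55%.

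Chromatin and histone members also parted by gene. CDCA7 was highest in epiblast-like cells, at 179.6 pooled CPM against 98.6 in hypoblast-like and 109.5 in trophectoderm-like cells. SLBP, which binds the stem-loop of histone mRNAs, was at 178.1, 199.2 and 268.5 CPM in the same order of classes. NASP, a histone chaperone, and HELLS, a chromatin remodeller, were close to level, at 394, 410 and 384 CPM and at 121.5, 118.7 and 131.5 CPM.

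UNG, the uracil glycosylase of base repair, and RFC2, a clamp loader subunit, were under the level filter. Each had 2 identifiers, whose reads were summed. UNG was at 2.12, 1.66 and 1.42 pooled CPM in epiblast-, hypoblast- and trophectoderm-like cells and had a read in all but 11 of the cells kept. RFC2 was at 0.16, 0.13 and 0.11 CPM, with a read in 67 cells. How reads that match both identifiers were counted was not tested, so these levels are uncertain.

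NDC80 had the largest ratio of all members with a level above 50 CPM in each class. It encodes a subunit of the outer kinetochore complex that grips microtubules. Pooled CPM was highest in epiblast-like (410, 407 to 412), next in hypoblast-like (235.9, 233.3 to 238.6) and lowest in trophectoderm-like cells (93.6, 92.7 to 94.4). Single cells ran from 38.1 to 1181 CPM (median 363) in epiblast-like, from 0 to 725 (median 160.8) in hypoblast-like and from 0 to 298 (median 86.04) in trophectoderm-like cells. The ranges overlapped at their low ends, and no trophectoderm-like cell reached the epiblast-like median. The difference between epiblast-like and trophectoderm-like cells was 4.38-fold. NUF2, which pairs with NDC80 in the same complex, was at 65.1, 61.2 and 72.8 pooled CPM in the 3 classes, with medians of 58.8, 59.6 and 75.3. The class medians of NUF2 thus lay close together where those of NDC80 lay far apart.

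The rest of the 13 kinetochore and spindle members had log2 ratios from -0.66 for NUSAP1 to 0.87 for KIF23 in trophectoderm-like over epiblast-like cells. NUSAP1, which bundles spindle microtubules, was at 66.6, 85.6 and 42.2 pooled CPM in epiblast-, hypoblast- and trophectoderm-like cells. KIF23, a motor of the central spindle, was at 113.8, 144.95 and 207.4 CPM. CENPE, the kinetochore motor that brings chromosomes to the metaphase plate, was at 118.1, 210.6 and 162.7 CPM.

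CDK1, the kinase that drives mitotic entry, was lowest in epiblast-like cells. It was at 220.6 pooled CPM there (218.6 to 222.6), at 429 in hypoblast-like (425 to 432) and at 517 in trophectoderm-like cells (515 to 519), the last 2.34-fold above the first. Its cells ran from 0 to 639 (median 189.5), 7.28 to 1084 (median 331) and 4.45 to 1464 CPM (median 451), with wide overlap. Under TMM its hypoblast-like over epiblast-like log2 ratio was 1.12, past 2-fold, against 0.96 with CPM. CCNB2, a B-type cyclin, was at 124.4, 144.4 and 220 CPM, while CKS1B, a small CDK-binding subunit, was at 516, 443 and 416 CPM.

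All 5 chromosome members had a ratio above 1 in both trophectoderm-like and hypoblast-like over epiblast-like cells. The median log2 ratios of all genes were -0.04 and -0.10. TOP2A was level in the second comparison, at a log2 ratio of 0.01. MKI67 was at 127.98, 210 and 214.4 pooled CPM in epiblast-, hypoblast- and trophectoderm-like cells. TOP2A, the topoisomerase that untangles sister chromatids, was at 335, 337 and 414 CPM. TMPO, a lamina-associated protein, was highest in hypoblast-like cells, at 324 CPM against 197.3 and 250.8.

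Aurora and checkpoint members split. AURKA, the centrosome kinase, was at 147.7, 210 and 278 pooled CPM in epiblast-, hypoblast- and trophectoderm-like cells, and CDC20, the activator of the anaphase-promoting complex, at 175.2, 223.8 and 317. BUB1, a spindle checkpoint kinase, was at 221.3, 258 and 137.3 CPM, and TTK, the MPS1 checkpoint kinase, at 77.2, 60.6 and 101.7. BIRC5, or survivin, and TPX2, which activates AURKA, were nearly level between classes, at 237.5, 227.7 and 221.3 CPM and at 201.5, 207.6 and 211.4 CPM.

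**Figure D3:**
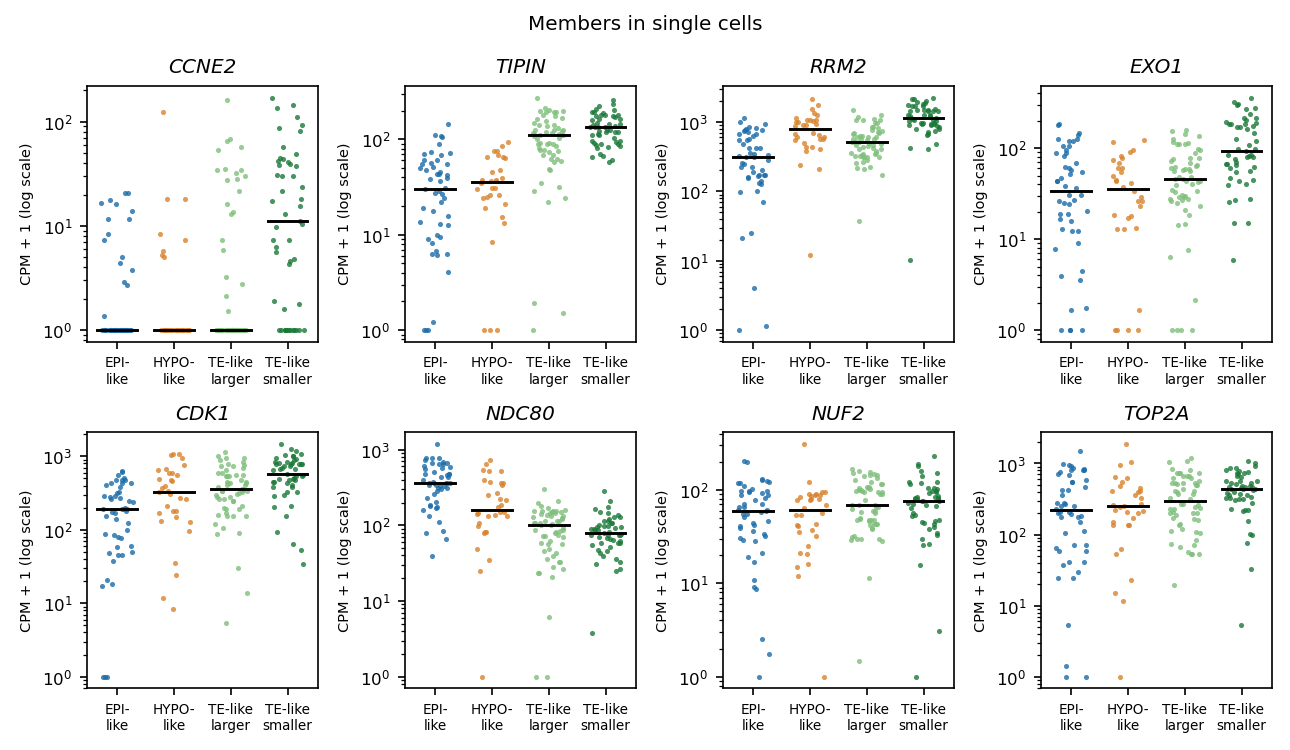
CPM + 1 on a log axis for 6 members with large ratios between classes or clusters and for NUF2 and TOP2A, in epiblast-like (n = 50), hypoblast-like (n = 32) and the larger (n = 60) and smaller (n = 51) trophectoderm-like cells; each point is a cell and each black line a median. NDC80 steps down from epiblast-like (median 363 CPM) to trophectoderm-like cells (86.04) while NUF2 stays level, and TIPIN is high in both trophectoderm-like clusters.

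The 2 trophectoderm-like clusters differed in S members more than in G2/M members. For the smaller over the larger cluster, 24 of 25 S members were above 0, with a median log2 ratio of 0.50 against 0.05 for all genes. CCNE2, EXO1, WDR76 and RRM2 were at least 2-fold higher, 4 of 25 beside 5.69% of all genes, and 0 were 2-fold lower. Of these, WDR76 was under 10 CPM in the larger cluster. CCNE2 was under 10 CPM in epiblast- and hypoblast-like cells, and its high level in the smaller cluster helped it pass the level filter. Its place in this count is a description. Of the 30 G2/M members, 15 were above 0 and 15 below, the median log2 ratio was 0.01, and 0 reached 2-fold, beside 10.7% of all genes in either direction. TYMS was the S member below 0, at -0.11.

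EXO1, an exonuclease of mismatch repair and of stalled forks, was at 51.5 pooled CPM in the larger (50.6 to 52.4) and 131.2 in the smaller cluster (130 to 132.6). Its cells ran from 0 to 158.5 (median 44.9) and from 4.96 to 357 CPM (median 92.3). RRM2 was at 538 and 1209 pooled CPM, with cells from 36.03 to 1492 (median 509) and from 9.29 to 2238 (median 1122). Although the ranges overlapped, 92.2% of cells of the smaller cluster were above the RRM2 median of the larger one. WDR76, a chromatin protein with WD40 repeats, was at 8.90 and 21.2 pooled CPM and had a read in 68.3% (55.04% to 79.7%) and 88.2% (76.1% to 95.6%) of cells. CCNE2 was at 11.4 and 29.3 CPM, with a read in 36.7% (24.6% to 50.1%) and 74.5% (60.4% to 85.7%). Its log2 ratio was 1.36 between the clusters and ran from 1.23 in thinned cells to 3.47 with medians of single cells plus 1 CPM.

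The S roles differed in this gap. All 9 licensing and helicase members were above 0 for the smaller over the larger cluster, with a median log2 ratio of 0.27, as were all 6 fork members at 0.52 and all 5 chromatin members at 0.60. Of the 3 nucleotide supply members, 2 were above 0 and TYMS below, with a median of 0.34. PRIM1 was at 61.3 and 107.8 pooled CPM in the larger and the smaller cluster, and MCM5, a helicase subunit, at 105.02 and 166.8. Of the G2/M members, AURKA had the largest ratio, at 214.4 and 345 CPM, followed in size by TMPO, which was lower in the smaller cluster, at 303 and 195.9 CPM. CDK1 was at 415 and 625 CPM, and DLGAP5, a spindle protein, at 314 and 245.6.

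Median S scores were 6.33 and 6.88 in the larger and the smaller cluster, each with cells spread over an SD of 0.71 and 0.60. At 100 CPM, at least 50% of the S members were reached in 41.7% (29.1% to 55.1%) and 78.4% (64.7% to 88.7%) of their cells, and at least 50% of the G2/M members in 90% and 92.2%. Depth moved with this difference. The smaller cluster had a median of 4.51622e+06 reads and 11528 detected genes against 3.69306e+06 and 10738.5, and the Spearman correlation of the S score with detected genes was 0.42 over the 60 cells and 0.40 over the 51 cells. In cells thinned to 1 depth the difference of median S scores was 0.46 instead of 0.54, and the median log2 ratio of S members 0.42 instead of 0.50. The part that detected genes had in the rest was not tested. The boundary between the clusters also moved with the order in which cells were listed: in accession order, an alternative added after the data were seen, they held 72 and 39 cells, and 99 cells stayed in the same one.

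The lists moved separately over cells. Spearman correlations of log2(CPM + 1) had a median of 0.38 over 300 pairs of S members, 0.45 over 435 pairs of G2/M members and 0.00 over 750 pairs that joined the lists. The cells are from 1 sample, and the values of a cell share its total, so these are descriptions. The between-list median was 0.16 in epiblast-like, -0.04 in hypoblast-like and -0.07 in trophectoderm-like cells, and -0.18 in the larger trophectoderm-like cluster. Score against score, the correlation was -0.05 over all cells, 0.25 in 50 epiblast-like cells and -0.40 in the larger trophectoderm-like cluster (60 cells). Epiblast-like cells held the tightest pairs within the lists, with medians of 0.51 for S and 0.67 for G2/M members.

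PCNA stood at the centre of the S list, with a median correlation of 0.55 with the other members, followed by GINS2 (0.52), CDC6 (0.49), FEN1 (0.45) and EXO1 (0.45). PCNA and GINS2, a subunit of the active helicase, formed its closest pair at 0.80. TIPIN (0.30), TYMS (0.21) and CDCA7 (0.17), a HELLS partner in chromatin remodelling, stood lowest. In the G2/M list TOP2A came first at 0.61, then KIF23 (0.56), AURKA (0.54), CDCA3 (0.54) and TPX2 (0.53). KIF20B (0.34), a motor of late mitosis, TMPO (0.21) and NDC80 (0.13) came last.

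The place of NDC80 differed between all cells and single classes. Over all cells it ranked 30 of 30 in the G2/M list, but within epiblast-like cells its median correlation was 0.69, rank 17, and within trophectoderm-like cells 0.38, rank 19. In hypoblast-like cells, the fewest at 32, it remained 30 of 30 at 0.18. TMPO by contrast was low in every class, at rank 30 in epiblast-like, 28 in hypoblast-like and 30 in trophectoderm-like cells. The lowest correlation between the lists over all cells joined NDC80 with TIPIN, at -0.49, the pair whose class levels ran in opposite directions.

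**Figure D4:**
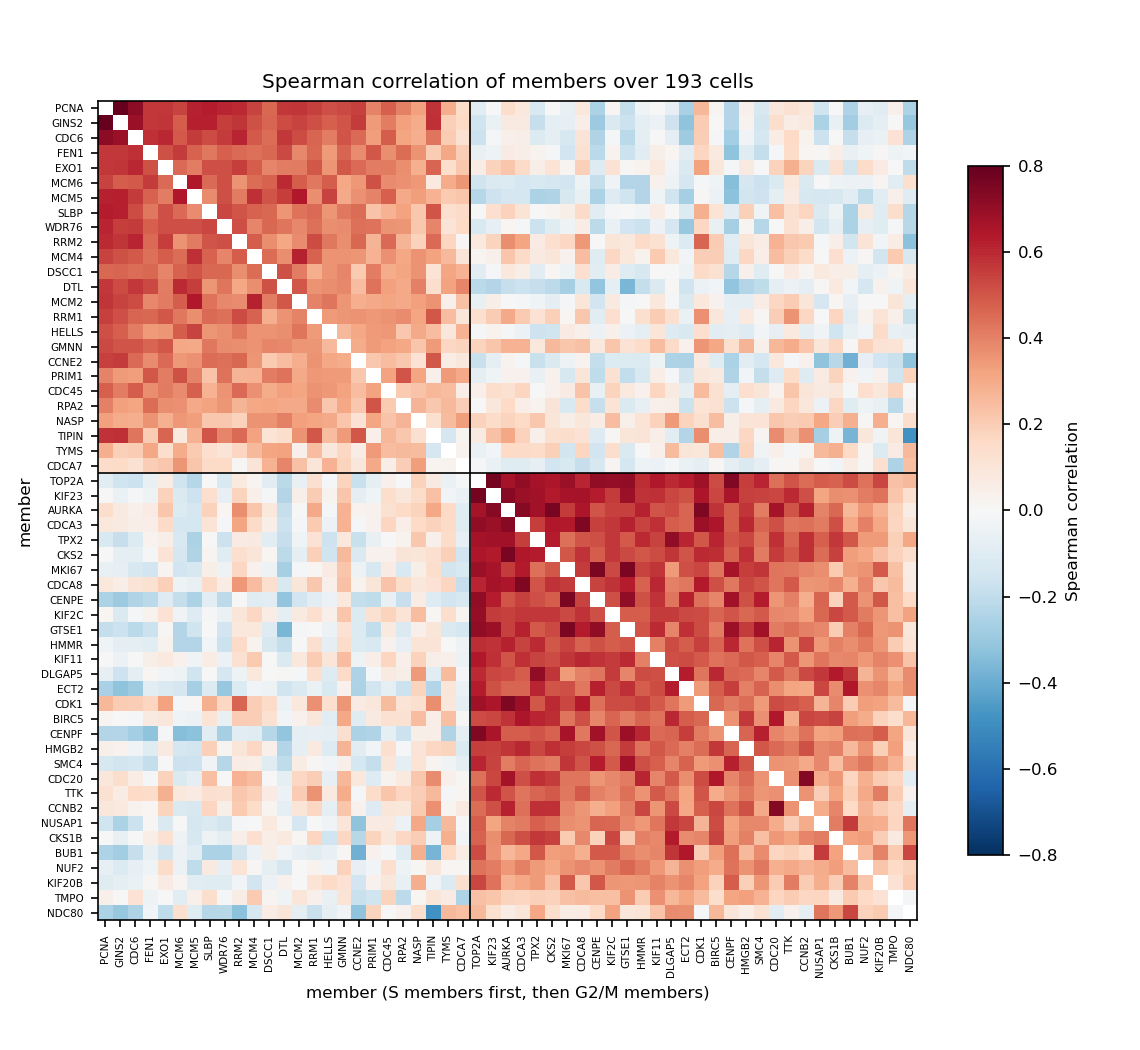
Spearman correlations of log2(CPM + 1) between members over all cells kept, with the 25 S members first and the 30 G2/M members after the black line, each ordered by its median correlation with its own list. Both diagonal blocks are mostly positive (medians 0.38 and 0.45) and the off-diagonal blocks centre on 0.00, with NDC80 in the last place.

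Outside the S, G2/M and other cell cycle lists, the genes that followed the S score most closely included TK1, the salvage kinase for thymidine (Spearman correlation 0.72), and RFC5, a clamp loader subunit (0.66). PPIF, RFC3, PAICS, UBL4A, RPA1, UBR7 and GMPS followed at 0.59 to 0.64. TK1 was level between classes, at 176.8, 187.7 and 178.1 pooled CPM in epiblast-, hypoblast- and trophectoderm-like cells. For the G2/M score the first 2 were identifiers that the names table did not pair with a symbol, ENSPTRG00000013564 (0.86) and ENSPTRG00000039444 (0.83). FAM83D, a spindle protein, and CKAP2, which nucleates microtubules, both had 0.79, and KIF20A, a motor of the central spindle, 0.78. KPNA2, RACGAP1, UBE2S and ARHGAP11A, and another identifier without a symbol, followed at 0.69 to 0.74.

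Of the other cell cycle lists, that of G1 cyclins and their kinases differed most between the trophectoderm-like clusters. In the smaller cluster 4 of its 6 genes at the level filter were at least 2-fold higher, beside 5.69% of all genes, and 0 lower, beside 4.99%. CCNE1, the E1-type cyclin, was at 85.3 pooled CPM in the larger (84.2 to 86.4) and 617 in the smaller cluster (614 to 620), a 7.24-fold difference, beside 123.4 in epiblast-like and 127.4 in hypoblast-like cells. Its cells ran from 2.25 to 245.8 CPM (median 72.3) and from 52.6 to 1780 (median 555), and 98.04% of cells of the smaller cluster were above the median of the larger one. CDK2, the kinase that CCNE1 and CCNE2 activate, was at 48.6 and 124.9 CPM, and CCND3, a cyclin that pairs with CDK4 and CDK6, at 72.5 and 253.8. CCND1 was at 11.7 and 29.9 CPM, with 33.9 in epiblast-like and 7.54 in hypoblast-like cells.

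CDK inhibitors differed in direction from gene to gene. CDKN1C, the p57 inhibitor, was at 3.78 pooled CPM in the larger (3.55 to 4.02) and 33.3 in the smaller trophectoderm-like cluster (32.6 to 34.03), an 8.81-fold difference. It was at 4.12 CPM in epiblast-like and 2.47 in hypoblast-like cells. It passed the level filter only through the smaller cluster, where it is high, so no count is read from it. CDKN1A, the p21 inhibitor, was at 11.3, 27.1 and 21.6 CPM in epiblast-, hypoblast- and trophectoderm-like cells. CDKN1B, the p27 inhibitor, was at 14.5, 12.3 and 7.70 CPM.

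**Figure D5:**
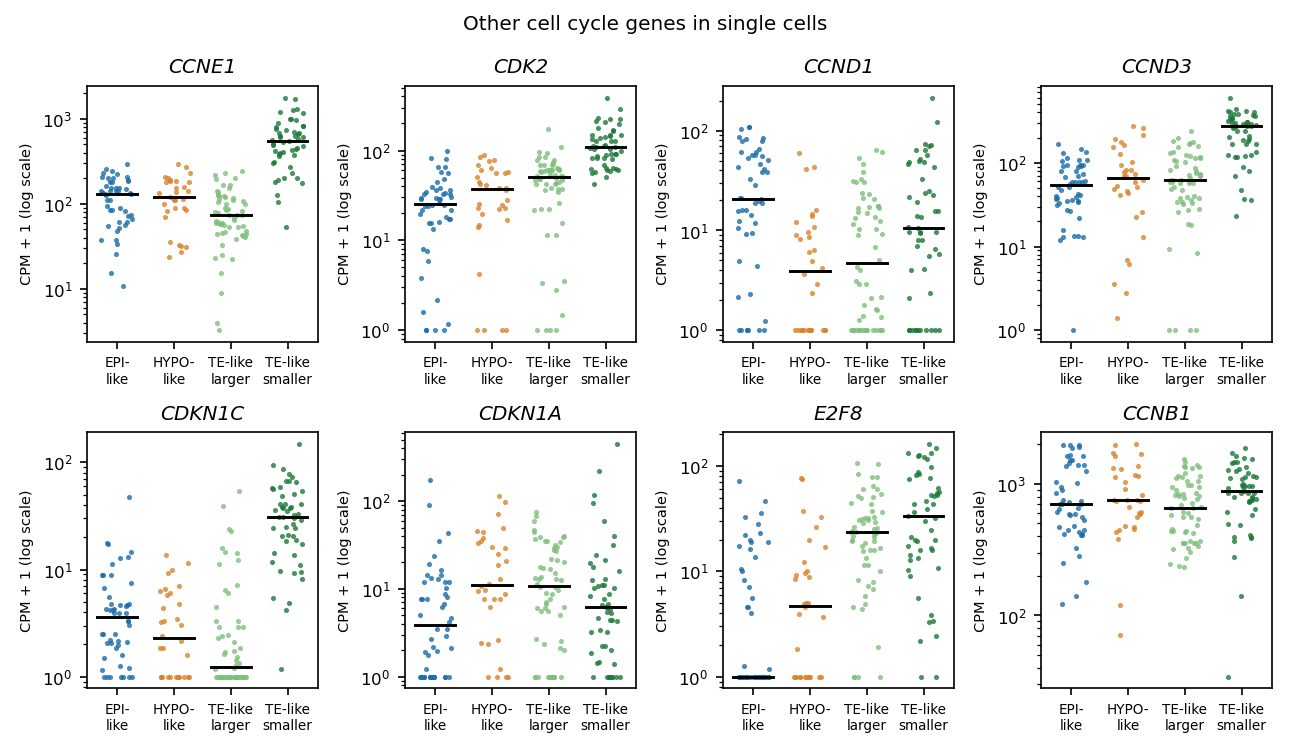
CPM + 1 on a log axis for cell cycle genes outside the 2 lists in epiblast-like (n = 50), hypoblast-like (n = 32) and the larger (n = 60) and smaller (n = 51) trophectoderm-like cells; each point is a cell and each black line a median. Medians of CCNE1 (72.3 and 555 CPM in the larger and smaller cluster) and CDKN1C are higher in the smaller trophectoderm-like cluster, with cells that overlap between the clusters, and CCNB1 overlaps in all 4 groups.

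Among 9 RB and E2F genes, E2F8, a repressor of E2F targets, was 4.31-fold higher in trophectoderm-like than in epiblast-like cells, at 39.2 against 9.09 pooled CPM, with 9.33 in hypoblast-like cells. It passed the level filter only through trophectoderm-like cells, where it is high, so no count is read from it. RBL2, the p130 pocket protein, was at 14.7, 17.1 and 29.6 CPM in epiblast-, hypoblast- and trophectoderm-like cells. Its log2 ratio of the smaller over the larger trophectoderm-like cluster was -1.07. TFDP2, an E2F partner, was at 43.8, 21.2 and 70.8 CPM.

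The 16 other licensing and replication genes had 2 members 2-fold lower in trophectoderm-like than in epiblast-like cells, ORC1 and UHRF1, and 1 higher, ATAD2. This is 18.75% of the list, beside 23% of all genes past 2-fold in either direction, 13.3% lower and 9.74% higher. ORC1, the largest subunit of the origin recognition complex, was at 161.2 pooled CPM in epiblast-like, 104.1 in hypoblast-like and 71.1 in trophectoderm-like cells. UHRF1, which guides maintenance methylation behind the fork, was at 57.9, 22.8 and 23.3 CPM. GINS1, a helicase subunit, was at 56.8, 23.6 and 43.9 CPM, so it was lowest in hypoblast-like cells.

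Of 24 other mitotic genes, ANLN and FBXO5 were 2-fold higher and CENPA 2-fold lower in trophectoderm-like than in epiblast-like cells, 12.5% of the list beside 23% of all genes. CENPA, the histone variant that marks centromeres, was at 181.4, 121.1 and 67.9 pooled CPM in epiblast-, hypoblast- and trophectoderm-like cells, the same order as NDC80. FBXO5, or EMI1, which holds back the anaphase-promoting complex, was at 44.1, 93.1 and 97.3 CPM. FZR1, an activator of the anaphase-promoting complex, was at 17.8 pooled CPM in the larger and 38.97 in the smaller trophectoderm-like cluster, and ASPM, a spindle pole protein, at 155.7 and 71.5. CCNB1 was level, at 901, 940 and 866 CPM. The closest followers of the G2/M score in this list were PLK1 (0.86), CCNB1 (0.74) and PRC1 (0.71), and MCM10 in the licensing list followed the S score at 0.69.

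Of 11 checkpoint genes, CHEK2, a DNA damage kinase, was 2.51-fold higher in epiblast-like than in trophectoderm-like cells, at 128.6 against 51.2 pooled CPM, with 66.2 in hypoblast-like cells. GADD45A, a damage-induced gene, was at 42.98, 86.9 and 99.1 CPM in epiblast-, hypoblast- and trophectoderm-like cells. Its log2 ratio of the smaller over the larger trophectoderm-like cluster was -1.32. BTG2, an antiproliferative gene, was highest in hypoblast-like cells at 105.4 CPM against 41.2 and 38.2. GADD45B, of the same family as GADD45A, was at 18.4 CPM in epiblast-like cells, through which alone it passed the level filter, and at 6.69 and 8.18 in the other classes.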

How the data were processed

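The authors deposited read counts per Ensembl gene for 217 single cells, without normalization. Their methods name FastP, the chimpanzee genome and STAR, whereas the submitters' processing notes list Trim Galore 0.6.6, STAR 2.7.7a and GRCh38; the identifiers are those of the chimpanzee. Symbols came from a names table that covers 18783 of 33729 identifiers. Reads of identifiers with 1 symbol were summed.

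Cells with fewer than 4000 reads or 8000 detected genes were left out, which left 193; the study gives another number of cells under the same stated limits, and the cause was not tested. Genes with reads in at least 20 cells (15804) were clustered with Scanpy 1.11.5 (50 components, 30 neighbours) and leidenalg 0.10.2 at resolution 1 and seed 0. Doublets were neither called nor removed, and no pair of cells was identical. Clusters were named from marker lists, and at least 3 markers at 1 CPM were required. TDGF1 of the epiblast list had no identifier.

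CPM were reads per 1000000 reads on genes, pooled over the cells of a class, with exact Poisson 95% intervals. Ratios used no pseudocount, and scores used 1 CPM. All cells form 1 sample, so no p-value was computed. Levels of different genes were not compared, since transcript lengths were not used here. No measured value enters the rule that lists the members, but the members, lists and thresholds were chosen with earlier results of these data known. Named are, per comparison and list, the 5 members with the largest ratio, the 5 highest and 3 lowest correlations per list, the 10 closest outside genes per list (1 is not reported here), other cell cycle genes past 2-fold, and members under the level filter; NUF2, GMNN, MCM4, PCNA, FEN1, CKS1B, BIRC5, TPX2, SLBP, NASP, HELLS, MCM5, CDKN1B, CCNB1, PLK1, PRC1 and MCM10 were added after their values were seen. Promoter sequences were not used here, so the planned motif search was not run. Scripts were tested on simulated data. Intervals came from scipy 1.17.1, tables from pandas 2.3.3 and numpy 2.4.6, and plots from matplotlib 3.10.9, under Python 3.11.15.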

Additional observations from a re-analysis of the deposited data

Results flagged for a closer look

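The 24 cells left out for too few reads or detected genes enter no comparison, yet they held reads of both lists. At least 50% of the 27 S members were at 10 CPM in 16 of them (66.7%, exact 95% interval 44.7% to 84.4%), and at least 50% of the 30 G2/M members in 21 (87.5%, 67.6% to 97.3%). They are given here because this signal lies in cells outside the report. Their depth ran from 5792 to 3863814 reads, and their part in the lower S share was not tested.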

How the results depend on the processing

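The median G2/M log2 ratio of trophectoderm-like over hypoblast-like cells was 0.03, with -0.02 in thinned cells and a range of -0.04 to 0.17 over all alternatives. That of the smaller over the larger cluster was 0.01, with -0.01 with TMM and a range of -0.08 to 0.11. Neither carried a direction. At 1.5-fold in place of 2-fold, the S counts were 9 (trophectoderm-like over epiblast-like), 7 (over hypoblast-like), 5 (hypoblast-like over epiblast-like) and 9 (smaller over larger cluster), and the G2/M counts 11, 5, 8 and 3, beside 40.7%, 33.9%, 28% and 23.9% of all genes. With medians of single cells the G2/M counts were 7, 1 and 2 in the first 3 comparisons and the S count for hypoblast-like over epiblast-like cells 2, beside 23.8%, 19.4% and 16% of all genes; with TMM the G2/M counts were 6, 1 and 1, beside 23.2%, 18.5% and 12.7%. The last G2/M count was also 1 with a stricter limit on detected genes, and without the 3 cells of few G2/M members, beside 13.1% and 14% of all genes. At 50 CPM per cell the shares with at least 50% of the members were 86% (S) and 88% (G2/M) in epiblast-like, 87.5% (S) in hypoblast-like and 93.7% (S) in trophectoderm-like cells. At 100 CPM they were 54%, 40.6% and 58.6% for S, and 70% and 90.99% for G2/M in epiblast- and trophectoderm-like cells. At 1 CPM, or with fewer members required, G2/M shares were 100%. The log2 ratio of CCNE2 in trophectoderm-like over epiblast-like cells ranged from 1.10 to 2.90 and that of NDC80 from -2.16 to -1.93. With 1 sample there was no replicate to leave out, and no paired analysis was possible because cells carry no shared number. The pseudocount of 10 CPM for scores, the 100 CPM threshold, accession order, and leaving out the deepest cell or the cells with few G2/M members were chosen after seeing the data. RFC2 had a read in 67 of the cells kept, and whether depth limited it was not tested.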
